A study of Homo sapiens with 6 samples.

Results

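Collagens, the glycoproteins and proteoglycans that assemble with them, and the enzymes that fold and crosslink them were examined in MDA-MB-231 cells after an siRNA against parathyroid hormone-related protein (PTHrP). MDA-MB-231 is an established line derived from a human breast carcinoma and has mesenchymal-like features. The group holds 40 named genes of 11963 on the array. Every probe set annotated to a member alone was taken, which gave 105 of 22215 probe sets. PTHrP is a secreted peptide that acts on bone, where breast cancer metastases release it. Cells had been electroporated with siPTHrP or with siLuc, a control siRNA named for luciferase, and total RNA was collected after 3 days. Each of 3 independent experiments gave 1 siPTHrP and 1 siLuc RNA, so each group held 3 arrays, and all were of the same cell line with no other genotype or treatment in the labels. The level of the targeted transcript was not analysed here, so the knockdown was not checked.

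A collagen molecule is a triple helix of 3 alpha chains. The chains are hydroxylated and helped to fold in the endoplasmic reticulum, secreted, and crosslinked outside the cell. Types I, III and V form fibrils. Type IV forms the network of basement membranes, type VI forms beaded filaments, and glycoproteins such as fibronectin tie these polymers to cell surface integrins. In tumours most fibrillar collagen is known to be made by stromal fibroblasts, while carcinoma cells can make type IV collagen, fibronectin and crosslinking enzymes themselves.

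The genes of type IV collagen chains lie in pairs, head to head, with the start sites of each pair close together and a shared promoter region between them. COL4A1 and COL4A2, whose products form the common type IV molecule with 2 alpha 1 chains and 1 alpha 2 chain, start 126 bases apart on chromosome 13. COL4A4 and COL4A3 start 135 bases apart on chromosome 2, and COL4A6 and COL4A5 379 bases apart on chromosome X. The COL4A1 and COL4A2 promoters are shown because their probe sets led the comparison below. Both sequences are RefSeq's on GRCh38.p14 and run from 250 bases before the gene's start through its first 50 bases. Capitals mark matches to the GC box GGGCGG and the CCAAT box CCAAT, searched on both strands, and no match overlaps another.
COL4A1, chr13:110307108-110307407, minus strand: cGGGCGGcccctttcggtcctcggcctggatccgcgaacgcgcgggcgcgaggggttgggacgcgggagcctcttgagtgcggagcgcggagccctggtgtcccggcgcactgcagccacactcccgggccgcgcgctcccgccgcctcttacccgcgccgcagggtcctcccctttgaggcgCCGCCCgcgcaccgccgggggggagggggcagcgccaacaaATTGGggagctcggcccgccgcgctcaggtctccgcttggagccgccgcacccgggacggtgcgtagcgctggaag
COL4A2, chr13:110307034-110307333, plus strand: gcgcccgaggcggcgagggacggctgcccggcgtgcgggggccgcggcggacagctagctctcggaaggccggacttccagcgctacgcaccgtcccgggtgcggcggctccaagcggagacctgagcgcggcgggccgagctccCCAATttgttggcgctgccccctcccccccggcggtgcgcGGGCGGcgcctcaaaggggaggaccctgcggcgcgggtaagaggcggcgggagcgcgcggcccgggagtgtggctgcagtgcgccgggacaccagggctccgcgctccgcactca
The windows share 226 bases, which are reverse complements of each other, so the CCAAT box and the GC box of the COL4A2 window are the same genomic bases as the CCAAT box and the nearer GC box of the COL4A1 window. That window holds 1 further GC box at its far end. Over 35116 promoter windows of this length 44.95% held a GC box and 34.61% a CCAAT box, so these matches are common and describe only the letters.

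The array total had been scaled to one trimmed mean, with median signals of 559 to 593 on siPTHrP arrays and 652 to 887 on siLuc arrays. The siLuc array of experiment 1 stood apart: its Spearman rank correlation with the others across probe sets was 0.716 to 0.725, against 0.882 to 0.960 among the other 5. Its 18 spiked hybridisation controls had a geometric mean signal of 273057, against 10838 to 41428 on the other 5. Of its values 90.1% were not whole numbers, while the other 5 arrays held whole numbers only, and whether it was scanned or processed differently is not stated in the labels. Many differences leaned on that array, and values for experiments 2 and 3 alone stand beside those of the members described below where they moved most. The cell line's mesenchymal-like markers (VIM, CD44, CAV1, AXL, MSN, ANXA1) all had a probe set above the intensity filter. Of 8 luminal epithelial markers 5 did too (KRT8, KRT19, GATA3, ERBB3 and ESR1), and CDH1, EPCAM and PGR did not.

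A filter on low values, set at the 40th percentile of mean log2 signal over all arrays, was passed by 54 member probe sets of 27 genes. The other 13 genes had none above it: COL3A1, COL5A2, COL4A4, COL4A5, COL6A3, COL9A3, COL16A1, NID1, HSPG2, SPARC, THBS2, POSTN and LUM. Their 21 probe sets had mean signals over the 6 arrays between 32 and 464.3, and they were not tested.

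The comparison of siPTHrP with siLuc RNA of the same experiment asked which transcripts respond to the siRNA. No member passed it. In limma, with experiments as blocks, 0 of the 54 member probe sets passed an adjusted p (Benjamini-Hochberg) under 0.05, as did 0 of all 13329 tested (0%). At an unadjusted p under 0.05 there were 3 member probe sets with higher signal, of COL4A2, COL4A1 and SERPINH1, and 1 with lower signal, of DCN. Over all tested probe sets 6.77% were higher and 5.36% lower at that threshold, so the members' count is no larger than the background. Their median log2 fold change was 0.032, with 28 above 0 and 26 below, beside a median of 0.030 and 52.5% above 0 over all tested probe sets. The siPTHrP signal was higher in all 3 experiments for 12 member probe sets and lower in all 3 for 13, where the shares over all tested probe sets were 19.1% and 19%. All siPTHrP arrays lay above all siLuc arrays for 7 and below them for 6, against 8.94% and 9.69% of all tested probe sets. Both counts include probe sets that averaged below the filter's level in one group, so they passed only through the group where they were higher. Among those above this was COL4A1 on 211981_at. Among those below these were COL4A3 on 216368_s_at, COL6A1 on 212938_at and FBLN1 on 202995_s_at. Their direction was fixed by the filter.

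Type IV collagen held the 2 member probe sets with the smallest p. COL4A2, on probe set 211964_at, had a signal of 4547, 4852 and 4230 on the siPTHrP arrays of experiments 1, 2 and 3, and 2128, 3184 and 2488 on the siLuc arrays. Every siPTHrP array lay above every siLuc array. The means were 4543 ± 311 with siPTHrP and 2600 ± 537 with siLuc (SD, n = 3 each), a fold of 1.76 (log2 fold change 0.82, SE 0.21, limma adjusted p = 0.324). In bulk RNA, a larger share of cells with the transcript and more of it per cell cannot be told apart.

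COL4A1, on probe set 211981_at, had a signal of 698, 1411 and 861 with siPTHrP and of 289.4, 226 and 206 with siLuc. The groups again did not overlap, and the largest siPTHrP value came from experiment 2. The fold was 3.79 (log2 fold change 1.92, SE 0.59, limma adjusted p = 0.345), on a probe set whose siLuc signals lay below the filter's level of about 376, so it passed the filter through its siPTHrP arrays. In experiments 2 and 3 alone the log2 fold change was 2.27 for this COL4A1 probe set (limma adjusted p = 0.119) and 0.68 for the COL4A2 probe set (limma adjusted p = 0.177). With array weights estimated by limma, the COL4A1 probe set was the one member to pass, at a log2 fold change of 2.25 and a limma adjusted p of 0.0467, where 0.75% of all tested probe sets passed as higher and 0.578% as lower. Over its alternatives the adjusted p of that probe set ran from 0.0467 to 0.682.

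The second probe sets of both genes had the same sign but rested on experiment 1. COL4A1 on 211980_at had 1456, 1339 and 1376 with siPTHrP and 489.3, 1145 and 1198 with siLuc. Its groups did not overlap, yet the siLuc array of experiment 1 was far below the other siLuc arrays. The log2 fold change was 0.65 (SE 0.40, limma adjusted p = 0.502) and 0.21 in experiments 2 and 3 alone. COL4A2 on 211966_at had 2086, 1993 and 1893 with siPTHrP and 342.1, 2682 and 1590 with siLuc, so the groups overlapped. Its log2 fold change of 0.79 (limma adjusted p = 0.517, SE 0.51) became -0.088 in experiments 2 and 3 alone.

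**Figure D1:**
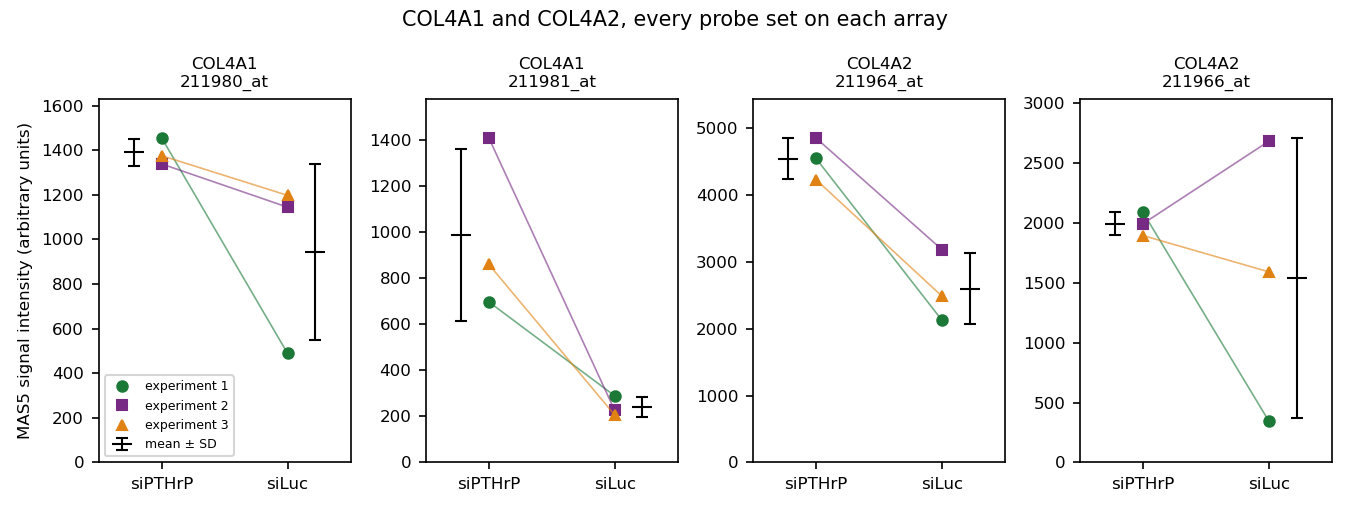
MAS5 signal intensity (linear, arbitrary units) of each COL4A1 and COL4A2 probe set on the siPTHrP and siLuc arrays, with lines joining arrays of one experiment and bars giving the mean ± SD of 3 arrays. On 211981_at and 211964_at all siPTHrP points lie above all siLuc points, while on 211980_at and 211966_at the siLuc array of experiment 1 (489.3 and 342.1) lies far below the other siLuc arrays.

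The other head-to-head pairs were dim, and only COL4A3 and COL4A6 had a probe set above the filter. COL4A3, a chain of the glomerular and alveolar basement membrane, had 301, 406 and 279 on probe set 216368_s_at with siPTHrP and 611.5, 455 and 473 with siLuc. The siPTHrP arrays were all lower, with a log2 fold change of -0.62 (limma adjusted p = 0.680, SE 0.64), and its other 6 probe sets were under the filter. COL4A4, the partner gene of COL4A3, had 13, 19 and 15 with siPTHrP and 74, 27 and 44 with siLuc, all far below the filter.

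COL4A6 on 213992_at had 467, 785 and 471 with siPTHrP and 981.3, 479 and 225 with siLuc, with overlapping groups and a log2 fold change of 0.22 (limma adjusted p = 0.892, SE 0.62). Its partner COL4A5 had 524, 317 and 87 with siPTHrP and 117.1, 446 and 588 with siLuc, also overlapping. Whether the COL4A1 and COL4A2 pair differed from these pairs was not tested.

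Type VI collagen gave opposite signs on different probe sets of one gene. COL6A2, the alpha 2 chain, had 730, 495 and 917 on 213290_at with siPTHrP and 1665, 700 and 1691 with siLuc, lower in each experiment, at 0.557-fold (log2 fold change -0.84, SE 0.38, limma adjusted p = 0.420). Its other probe set, 209156_s_at, had 1588, 1531 and 1179 with siPTHrP and 97.5, 1271 and 1108 with siLuc. This 2.62-fold difference was higher in each experiment (log2 fold change 1.39, SE 0.69, limma adjusted p = 0.445) but had a log2 fold change of 0.18 in experiments 2 and 3 alone.

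COL6A1, the alpha 1 chain, had 5 probe sets above the filter, with log2 fold changes from -1.23 to 1.01. The highest, on 212091_s_at, became -0.22 in experiments 2 and 3 alone. On 213428_s_at it had 3144, 3320 and 4085 with siPTHrP and 2829, 2577 and 2315 with siLuc, without overlap, at 1.36-fold (limma adjusted p = 0.453). On 212938_at it had 387, 380 and 203 with siPTHrP and 512.4, 732 and 1126 with siLuc, again without overlap but at 0.426-fold (limma adjusted p = 0.453). That log2 fold change of -1.23 was -0.65 without experiment 3 and -1.65 without experiment 1, and the 0.44 of 213428_s_at was 0.26 without experiment 3. With 212938_at set aside, the other COL6A1 probe sets above the filter ran from -0.22 to 1.01, so the gene had no single direction on this array.

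The remaining collagens showed few differences shared by their probe sets. Among fibrillar chains COL1A1 had a log2 fold change of -1.86 on 202312_s_at (SE 0.86, limma adjusted p = 0.424), with 76, 129 and 819 under siPTHrP and 1546, 481 and 670 under siLuc. The groups overlapped and experiment 3 had the opposite sign, and in experiments 2 and 3 alone the log2 fold change was -0.75. On the log2 scale its siPTHrP signals averaged below the filter's level. This COL1A1 probe set therefore passed only through its siLuc arrays and had to stand lower with siPTHrP. On probe set 217430_x_at COL1A1 stood at 0.861-fold, COL1A2 stood at 1.13-fold on its one probe set above the filter (log2 fold change 0.18, and -0.51 in experiments 2 and 3 alone), and COL5A1, a regulator of fibril diameter, at 1.06-fold.

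COL7A1, the anchoring fibril collagen, had 1114, 1447 and 1506 on 217312_s_at with siPTHrP and 240.6, 1413 and 780 with siLuc. Its siPTHrP signal was higher in each experiment at 2.05-fold (log2 fold change 1.04, SE 0.47, limma adjusted p = 0.419), though the groups overlapped through a siLuc array. On 204136_at COL7A1 had 441, 848 and 1571 with siPTHrP and 1776, 405 and 1230 with siLuc, a log2 fold change of -0.20. Without experiment 1, whose siLuc array was the highest there and the lowest on 217312_s_at, these COL7A1 values were 0.69 and 0.48, both higher with siPTHrP. COL13A1, a transmembrane collagen, gave -0.43 to 0.068 on 3 probe sets, and COL18A1, whose C-terminal fragment is endostatin, gave 0.071 and 0.76, which became -0.25 and 0.28 in experiments 2 and 3 alone. COL13A1 on 211809_x_at was lower in each experiment, with a log2 fold change of -0.64 in experiments 2 and 3 alone (limma adjusted p = 0.217).

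Of the matrix glycoproteins, fibronectin (FN1), which links collagens to integrins, also split by probe set. On 214701_s_at FN1 had 1273, 743 and 884 with siPTHrP and 1965, 1168 and 1649 with siLuc, lower in each experiment, at 0.609-fold (log2 fold change -0.72, SE 0.32, limma adjusted p = 0.418). On 210495_x_at it had 7033, 7343 and 6982 with siPTHrP and 3703, 7670 and 4810 with siLuc, at 1.38-fold (log2 fold change 0.47, SE 0.22, limma adjusted p = 0.427). The siPTHrP values there were close together, and the siLuc values ranged from below to above them; in experiments 2 and 3 alone the log2 fold change was 0.24. The other 3 FN1 probe sets above the filter lay between 0.0068 and 0.39 on the log2 scale. In experiments 2 and 3 alone they lay between -0.24 and 0.21.

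THBS1, thrombospondin 1, which can activate latent TGF-beta, had 833, 888 and 611 on 201109_s_at with siPTHrP and 466.6, 380 and 430 with siLuc. All siPTHrP arrays lay above the siLuc arrays at 1.78-fold (log2 fold change 0.83, SE 0.51, limma adjusted p = 0.505), while 2 further THBS1 probe sets gave 0.062 and -0.093 on the log2 scale. Those 2 became -0.19 and 0.22 in experiments 2 and 3 alone. TNC, tenascin C, stood at 1.31-fold with overlapping groups. The microfibril proteins FBN1 and FBLN1 had 3 probe sets above the filter, all below 0, with log2 fold changes of -0.77 to -0.12 and limma adjusted p-values from 0.587 upward. In experiments 2 and 3 alone the log2 fold change of FBN1 moved to -0.081, beside -0.52 in all 3.

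Small leucine-rich proteoglycans bind collagen fibrils, and decorin and biglycan had 1 tested probe set each. Decorin (DCN) had 802, 728 and 177 on 201893_x_at with siPTHrP and 1872, 819 and 1277 with siLuc. Every siPTHrP array lay below every siLuc array, though in experiment 2 by little, and the fold was 0.386 (log2 fold change -1.37, SE 0.55, limma adjusted p = 0.396). Leaving out experiment 1 gave -1.46 and leaving out experiment 3, with its siPTHrP signal of 177, gave -0.69 on the log2 scale. The other 3 DCN probe sets were below the filter, as were 2 of BGN and those of LUM. Biglycan (BGN) had 468, 563 and 728 on 201261_x_at with siPTHrP and 638.9, 865 and 1290 with siLuc, lower in each experiment at 0.652-fold (limma adjusted p = 0.551).

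Marker lists of fibroblasts, blood cells and endothelial cells had lower summed signals with siPTHrP as well. For fibroblasts, 11 probe sets of PDGFRA, PDGFRB, THY1, FAP, ACTA2 and TCF21 summed to 3405, 3740 and 2502 on the siPTHrP arrays and 10547, 3916 and 4501 on the siLuc arrays of experiments 1, 2 and 3. The groups did not overlap, but the highest sum by far was that of the siLuc array of experiment 1. Only THY1 and ACTA2 had a probe set above the filter, none of these probe sets reached an unadjusted limma p under 0.05, and no marker was listed at 0. Blood cell markers summed to 2018 to 2736 with siPTHrP and 3827 to 4549.8 with siLuc, and endothelial markers to 682 to 1628 with siPTHrP and 1550 to 4361 with siLuc, where the groups overlapped. The endothelial marker PECAM1 on 208982_at had 791, 419 and 481 with siPTHrP and 2013, 1056 and 1460 with siLuc. It did reach an unadjusted limma p under 0.05 (log2 fold change -1.40, limma adjusted p = 0.328). Above the filter were 4 of 11 fibroblast, 2 of 8 blood cell and 1 of 5 endothelial probe sets. Under the filter only 22.6% of all probe sets on the array stood above 0, so lower sums of dim markers are common here. Luminal epithelial markers summed to 8856 to 9209 with siPTHrP and 8040 to 15080 with siLuc, and the groups overlapped. The part of these values in the DCN and BGN differences was not tested.

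VCAN, versican, a large hyaluronan-binding proteoglycan, had 5 probe sets above the filter with log2 fold changes of -0.85 to 0.32. Those extremes, on 204619_s_at and 211571_s_at, became -0.19 and -0.76 in experiments 2 and 3 alone. One of them, 204620_s_at, had 2776, 2936 and 3912 with siPTHrP and 3364, 3968 and 3237 with siLuc, so the groups overlapped at 0.904-fold. On 221731_x_at VCAN stood at a log2 fold change of -0.055 over 3 experiments, which became -0.63 in experiments 2 and 3 alone (limma adjusted p = 0.222). On 215646_s_at it moved from -0.084 over 3 experiments to -1.41 in experiments 2 and 3 alone (limma adjusted p = 0.284). In experiments 2 and 3 this probe set averaged below the filter's level with siPTHrP on the log2 scale, so it had to stand lower there. All 7 proteoglycan probe sets above the filter, 5 of them of VCAN, were below 0 in experiment 2, and 4 of 7 and 5 of 7 were in experiments 1 and 3. Their median in experiment 2 was -0.61, beside -0.037 over all tested probe sets. The share below 0 in each experiment was not counted over all tested probe sets, so these counts do not set the proteoglycans apart.

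Among collagen-processing enzymes, SERPINH1 (HSP47), the collagen-specific chaperone of the endoplasmic reticulum, had the smallest p. It had 4549, 4334 and 5560 with siPTHrP and 2968, 2207 and 5138 with siLuc. The signal was higher in each experiment, by little in experiment 3, and the groups overlapped through the siLuc array of that experiment. The fold was 1.48 (log2 fold change 0.57, SE 0.22, limma adjusted p = 0.396), and the log2 fold change was 0.54 in experiments 2 and 3 alone.

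The lysyl oxidases, which start crosslinks by oxidising lysines, did not share a direction. LOX had 2031, 1370 and 1528 on 215446_s_at with siPTHrP and 1067, 889 and 1170 with siLuc, without overlap, at 1.56-fold (log2 fold change 0.64, SE 0.32, limma adjusted p = 0.445), and its other probe sets gave 0.43 and -0.10 on the log2 scale. LOXL1 had 1458, 1520 and 1144 with siPTHrP and 90.7, 1020 and 1000 with siLuc. Its groups did not overlap, but its log2 fold change of 1.52 (limma adjusted p = 0.410, SE 0.67) became 0.38 in experiments 2 and 3 alone. LOXL2 stood at 0.676-fold and 0.866-fold on its 2 probe sets above the filter.

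The lysyl hydroxylases modify procollagen lysines before secretion. PLOD2, which hydroxylates the telopeptides, had 1941, 1858 and 1894 on 202619_s_at with siPTHrP and 2038, 2933 and 2758 with siLuc, and 1529, 1655 and 1347 on 202620_s_at with siPTHrP and 2047, 1950 and 1697 with siLuc. Both probe sets were lower on every siPTHrP array, at 0.747-fold and 0.797-fold (limma adjusted p = 0.498 and 0.605). PLOD1 stood at 1.04-fold and PLOD3 at 0.849-fold, with overlapping groups.

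**Figure D2:**
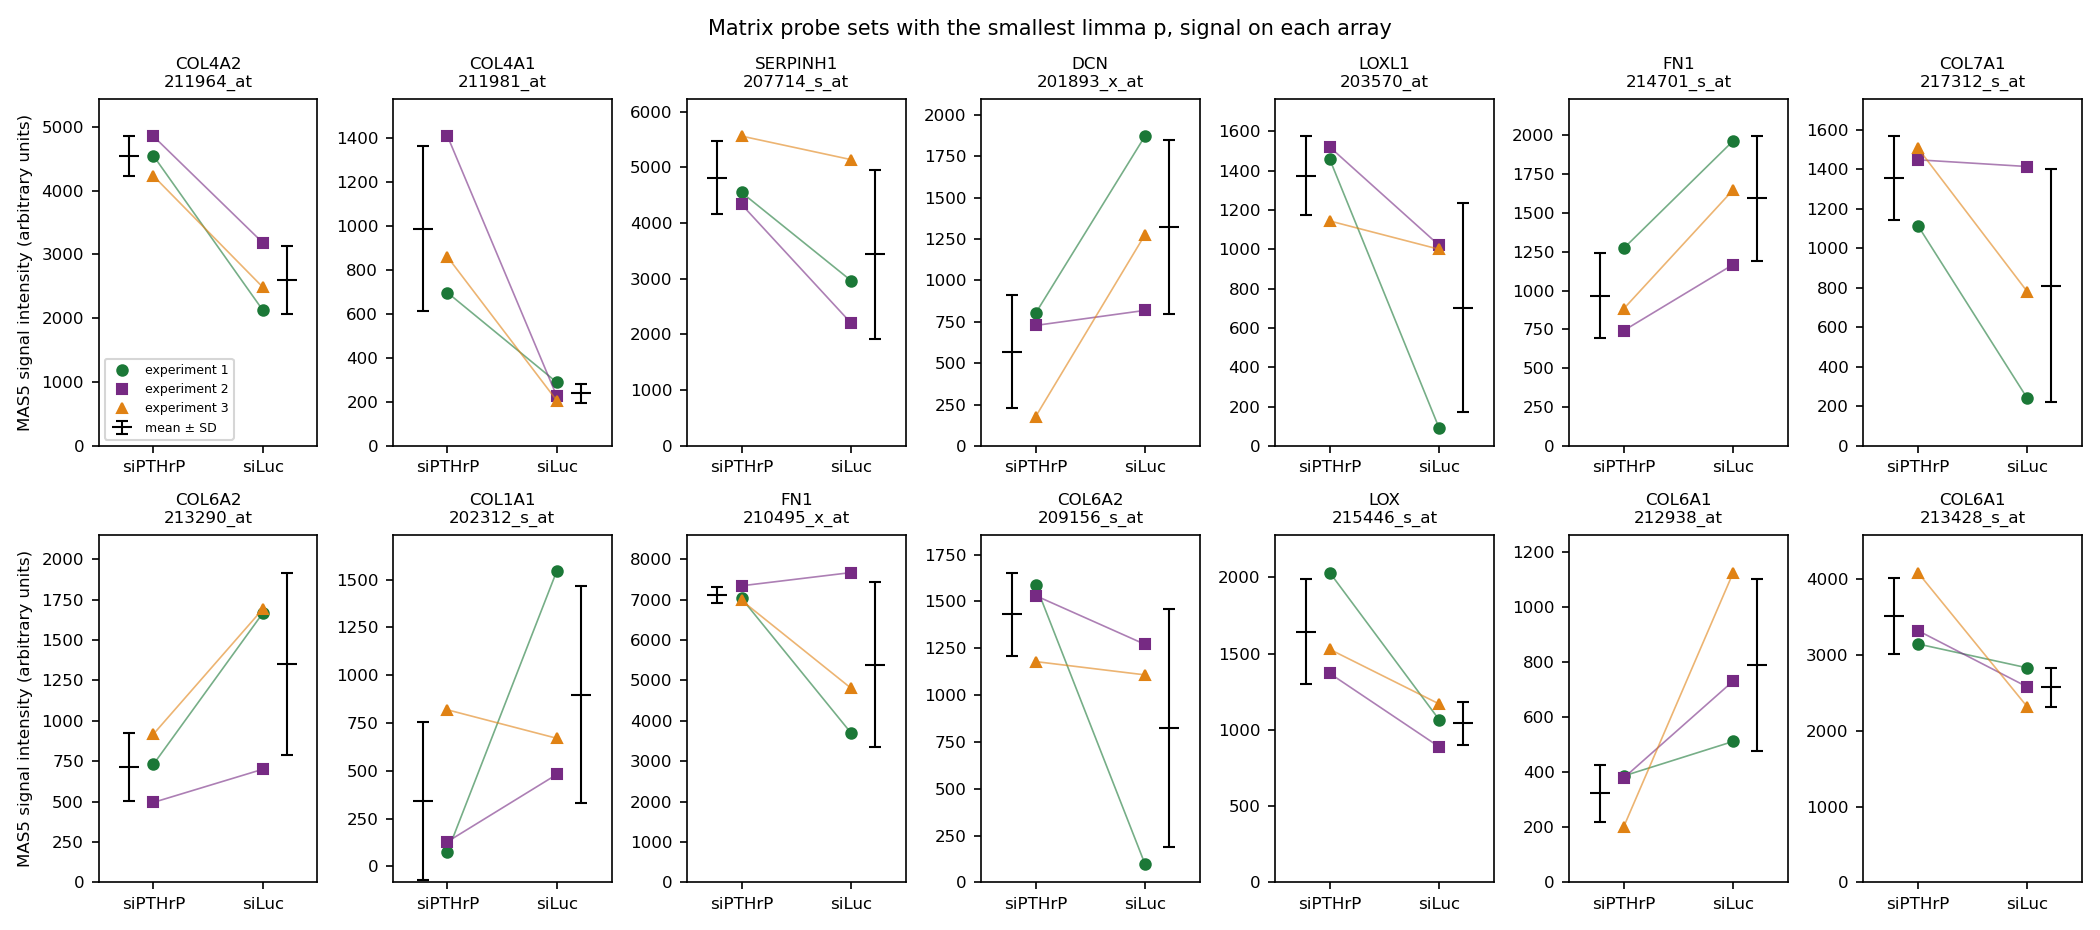
MAS5 signal intensity (linear, arbitrary units) of the 14 member probe sets with the smallest limma p, siPTHrP left and siLuc right, with lines joining arrays of one experiment and bars giving the mean ± SD of 3 arrays. For LOXL1 and COL6A2 on 209156_s_at the siLuc array of experiment 1 (90.7 and 97.5) lies far below the other siLuc arrays, and for LOXL1, COL4A2, COL4A1, DCN, LOX and both COL6A1 probe sets the groups do not overlap.

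Agreement between probe sets of one gene was limited. Of 15 members with 2 or more probe sets above the filter, 7 had one sign on all of them (COL18A1, COL1A1, COL4A1, COL4A2, FBLN1, LOXL2 and PLOD2) and 8 had both signs. In experiments 2 and 3 alone the counts were again 7 and 8, but COL18A1 and COL4A2 had both signs there, and COL7A1 and VCAN had one. Experiment 1 gave the largest of the 3 differences for 29 of 54 member probe sets, against 10 in experiment 2 and 15 in experiment 3. That count was not made over all tested probe sets, so it does not set the members apart. The siLuc array of experiment 1 was the lowest of 6 arrays for 20 of the 54 member probe sets and the highest for 14, or 37.0% and 25.9%, against 33.8% and 30.2% of all tested probe sets.

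**Figure D3:**
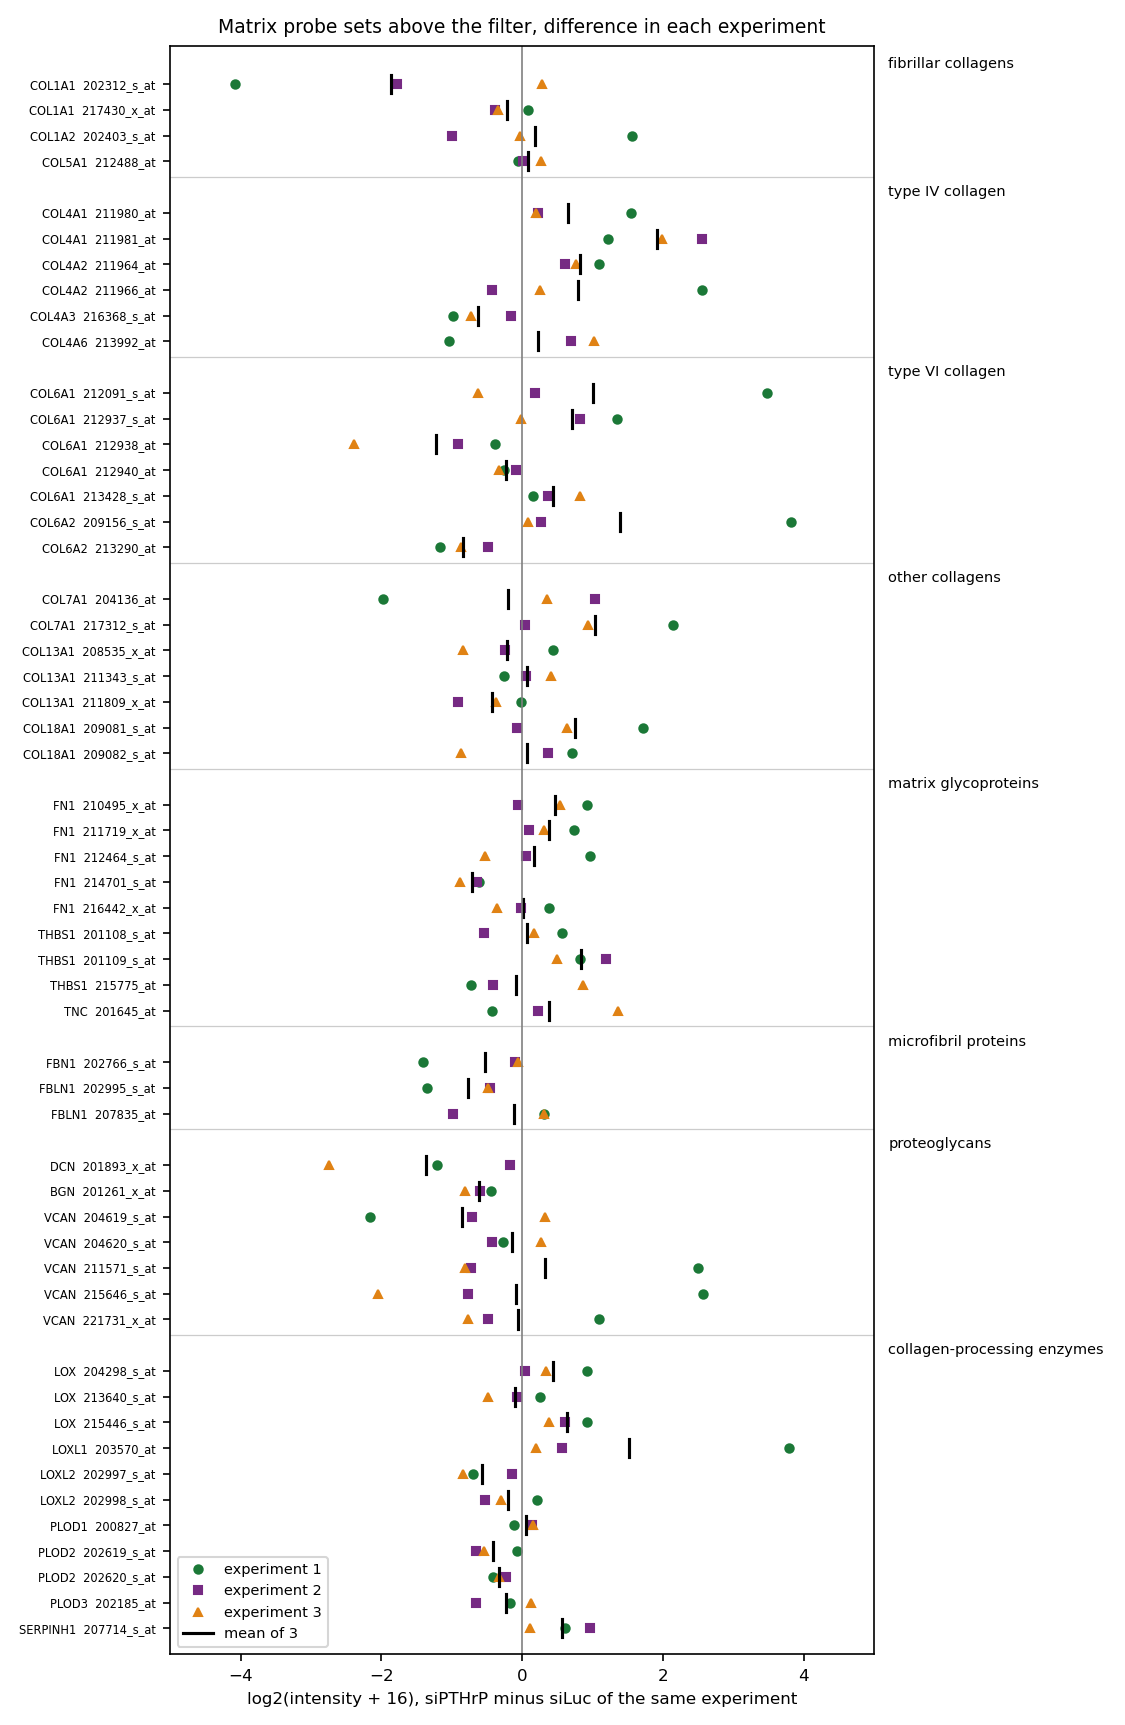
Difference in log2(intensity + 16) between siPTHrP and siLuc of the same experiment for the 54 member probe sets above the filter, by role, with the mean of the 3 experiments as a black bar. The points of experiment 1 lie farthest out for COL1A1 on 202312_s_at, COL6A2, LOXL1 and several VCAN probe sets. COL4A1 on 211981_at and COL4A2 on 211964_at lie right of 0 in each experiment.

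In experiments 2 and 3 alone 5 of 57 member probe sets were higher and 9 lower at an unadjusted p under 0.05, or 8.77% and 15.8%, against 6.59% and 7.23% of all tested probe sets. None of the 57 passed limma's adjusted p, where 0.158% of all tested probe sets did as higher and 0.09% as lower. The lower ones were COL13A1 and VCAN with 2 probe sets each and COL6A1, PLOD2, DCN, FN1 and LOXL2 with 1 each. Among them COL6A1 on 212938_at, VCAN on 215646_s_at and DCN on 201893_x_at averaged below the filter's level with siPTHrP in these experiments, on the log2 scale. They entered through their siLuc arrays and had to stand lower, as COL4A1 on 211981_at had to stand higher. The shares are therefore not read as a result about the members. The higher ones were of COL4A1, COL4A2, COL6A1, COL5A1 and SERPINH1. COL5A1 was on 203325_s_at, which the filter on all 6 arrays left out, with 781, 628 and 914 under siPTHrP and 95.5, 369 and 86 under siLuc. Those siPTHrP values all lay above the siLuc values. The siLuc signals lay below the filter's level of about 376, so this probe set entered the test through its siPTHrP arrays and had to stand higher, with a log2 fold change of 1.97 in experiments 2 and 3 alone (limma adjusted p = 0.273). With the siLuc array of experiment 1 left out alone, and therefore no pairing, 6 member probe sets were higher and 5 lower at an unadjusted p under 0.05, against 6.36% and 6.2% of all tested probe sets. With array weights, which gave experiment 1 a weight of 0.386, 4 were higher and 7 lower, against 8.96% and 8.4%. With all 6 arrays unpaired 2 were higher and 2 lower, against 5.19% and 5.15%.

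**Figure D4:**
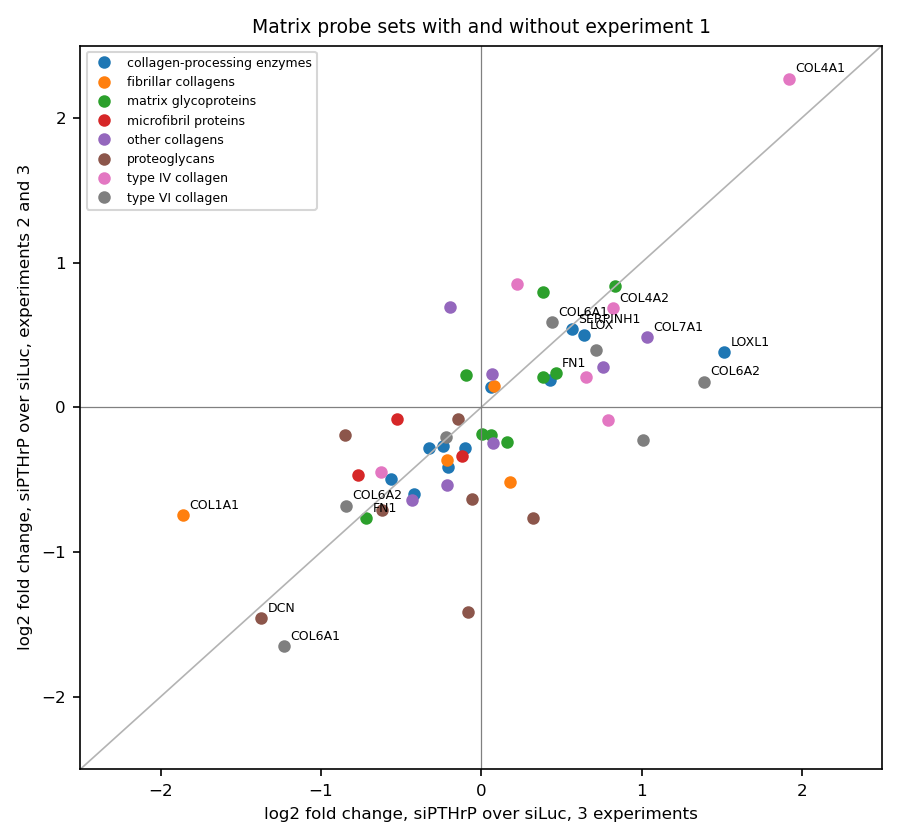
Log2 fold change (siPTHrP over siLuc) of the 54 member probe sets from all 3 experiments on the x axis and from experiments 2 and 3 on the y axis, coloured by role, with the line of equality in grey. COL4A1 (1.92 and 2.27), COL4A2 (0.82 and 0.68) and DCN (-1.37 and -1.46) lie near the line, and LOXL1 (1.52 and 0.38) and COL6A2 (1.39 and 0.18) lie far below it.

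The 51 member probe sets under the filter stood mostly lower with siPTHrP, 9 above 0 and 42 below, and their median was -0.85 on the log2 scale. The dim probe sets of the whole array did likewise, with 22.6% above 0 and a median of -0.65. The siLuc array of experiment 1 was the highest of 6 arrays for 22 of the 51, or 43.1%, against 49.9% of all probe sets under the filter. These dim probe sets include those of COL3A1, SPARC, THBS2 and LUM, stromal matrix genes.

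Further genes of the same processes gave no probe set that passed the adjusted threshold. Of 25 tested probe sets for collagen hydroxylation, folding, transport and procollagen cleavage, 2 were higher and 1 lower at an unadjusted p under 0.05, and the median log2 difference was -0.055. These counts, and those of the next lists, stand beside 6.77% higher and 5.36% lower over all tested probe sets. The prolyl 3-hydroxylase P3H2 stood at a log2 fold change of 0.57, its relative P3H1 at -0.63, the endoplasmic reticulum ion channel TMEM38B at 0.76 and the cyclophilin PPIB at 0.47, with limma adjusted p-values from 0.404 to 0.424. A second PPIB probe set stood at 0.13. Of 5 tested probe sets of further collagens, 0 were higher and 1 lower, and all 5 were below 0. The one with the smallest p was COL11A2, with 1456, 1388 and 1670 under siPTHrP and 3140, 1741 and 2753 under siLuc (log2 fold change -0.71, SE 0.27, limma adjusted p = 0.393).

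Of 34 tested probe sets of further matrix glycoproteins, proteoglycans and crosslinking enzymes, 2 were higher and 2 lower at an unadjusted p under 0.05. The higher ones were of LTBP1 and LTBP3, which anchor latent TGF-beta in the matrix. LTBP1 on 202729_s_at had 7488, 7414 and 7035 with siPTHrP and 3770, 4726 and 4118 with siLuc, without overlap (log2 fold change 0.80, SE 0.18, limma adjusted p = 0.321), and a second LTBP1 probe set stood at 0.62 with mixed signs. LTBP3 had 1382, 949 and 1048 with siPTHrP and 101, 280 and 515 with siLuc, also without overlap (log2 fold change 2.10, SE 0.64, limma adjusted p = 0.345). The LTBP3 differences were 3.58, 1.70 and 1.00 on the log2 scale in experiments 1, 2 and 3. Its siLuc signals averaged below the filter's level, so it too entered the test through its siPTHrP arrays. The lower ones were ACAN, the cartilage proteoglycan aggrecan, at -0.76 and THBS4, thrombospondin 4, at -1.36 on the log2 scale, each with a limma adjusted p of 0.393 or 0.394.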

How the data were processed

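Per the labels' protocols, RNA of MDA-MB-231 cells was purified on RNeasy columns, and each of the 6 RNAs was biotin-labelled and put on 1 Affymetrix human array. The authors deposited linear signal intensities that, per the submitters' processing notes, came from MAS5. The version and settings of MAS5 were not found in the labels or headers. The mean after trimming 2% at each end was 1500.4 to 1500.6 on every array, so the deposited scaling was kept. MAS5 subtracts mismatch signal, which makes dim values noisy, and detection calls were not used here.

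Groups came from titles and descriptions. By elimination, the siLuc sample whose labels carry no number was assigned to experiment 1, and the sample titled siLuc 3, whose description says 2, was kept under its title. The design text states that RNAs of one experiment were compared, so experiment was a block. Deviations from the group means of same-numbered arrays correlated at -0.012, 0.157 and 0.157 in experiments 1, 2 and 3, and those of differently numbered arrays at -0.206 to 0.132.

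Of 22283 probe sets 68 controls were left out. Probe sets whose mean of log2(intensity + 16) lay at or above the 40th percentile (a signal of about 376) were tested, 13329 in all, with limma 3.58.1 in R 4.3.3 (lmFit and eBayes with an intensity trend, 2 residual and 7.17 prior degrees of freedom). P-values were two-sided, Benjamini-Hochberg adjustment ran over all tested probe sets, and each fold change divides siPTHrP by siLuc on the log2(intensity + 16) scale, which understates changes of dim probe sets. The steps were tested on simulated data. Names came from the array's annotation: 19071 probe sets had one gene, 1043 several and 2169 none, and the symbols of 19059 were updated through Entrez identifiers to RefSeq names. Members, gene lists and alternatives were chosen with earlier results of these data known. Named in full were the 14 member probe sets with the smallest p, the type IV collagen pairs, and up to 4 probe sets per further list. Promoters are RefSeq sequences on GRCh38.p14.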

Additional observations from a re-analysis of the deposited data

How the results depend on the processing

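Each of the 14 member probe sets named in full kept its sign in every alternative that tested it, 11 to 15 alternatives each, and COL4A1 on 211981_at was the one that passed in any, with array weights. Removing the block, or changing the filter, the trend or the probe sets included, leaves a fold change as it was, so no sign could change there. Probe sets with one sign in all 3 experiments could not reverse when 1 was left out. The 14 were also picked by p from these same arrays, so their kept signs are no separate support. The counts and the median were less stable. Member probe sets passing limma's adjusted p under 0.05 numbered 0 except for 1 with array weights, while over all tested probe sets the count was 0 with all experiments and 33, 47 and 215 without experiments 1, 2 and 3, 177 with array weights and 5 without _x_at and _s_at probe sets. Those higher at an unadjusted p under 0.05, 3 in the paired analysis, numbered 5 with median centring, 6 with no filter, 6 with the first siLuc array dropped and no replicate block, and 5 to 7 when 1 experiment was left out. Those lower, 1 in the paired analysis, numbered 2 with no replicate block, 2 with quantile normalization, 3 with no intensity trend, 7 with array weights, 9 with no filter, 5 with the first siLuc array dropped and no replicate block, and 1 to 9 when 1 experiment was left out, the 9 without experiment 1. The median log2 fold change of 0.032 became -0.24 with no filter, which adds dim probe sets, -0.12 with array weights, -0.054 with the first siLuc array dropped, and -0.19 to 0.045 when 1 experiment was left out; the cause was not tested. Over all tested probe sets it was -0.16 with no filter, and 0.11 with median centring, where the members' median was also 0.11. Beside these counts, over all tested probe sets 8.49% were higher with median centring, 4.43% higher and 6.88% lower with no filter, 5.43% lower with quantile normalization, 6.49% lower with no intensity trend, and 6.17% to 7.87% higher and 3.79% to 7.23% lower when 1 experiment was left out. With 3 arrays per group and no detection calls, signals near the filter limit what can be compared. In limma the p-values rest on the spread between these experiments. In the paired analysis of all experiments that spread had 2 residual degrees of freedom per probe set. It was moderated, with 7.17 prior ones, toward probe sets of like intensity. Fits that left out 1 experiment, such as that of experiments 2 and 3 alone, had fewer residual degrees of freedom, so their p-values rest more on that moderation.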
